A study of Mus musculus with 6 samples.

Results

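Cathepsins are the proteases of the lysosome. The genes described here are the 10 cathepsin genes Ctsa, Ctsb, Ctsc, Ctsd, Ctsh, Ctsk, Ctsl, Ctss, Ctsw and Ctsz, taken by name from a table of 55487 mouse genes without regard to their values; Ctsg, a granule protease of another family, was left out of the set. All 10 passed the filter on low values that left 15020 genes for testing, although 1 of them, Ctsw, passed only through the pIpC-labelled libraries. Cathepsins are made as inactive precursors, carried to the lysosome largely by mannose 6-phosphate receptors, and activated there by cleavage at acid pH. They fall into serine (cathepsin A), aspartic (cathepsin D) and cysteine proteases (the others), and the cysteine members are held in check by cystatins and stefins. In myeloid cells they digest engulfed and worn-out proteins, trim the invariant chain of MHC class II molecules and, in the case of cathepsin C, activate the serine proteases of granules.

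RNA was sequenced from 6 bone marrow samples of femora and tibiae, 3 from recipients given PBS and 3 from recipients given pIpC (poly(I:C), synthetic double-stranded RNA to which cells respond by making interferon). The question was what follows when the chromatin remodeling gene Brd9 is deleted in established acute myeloid leukemia. Donor cells of both groups were C57BL/6, CD45.2(+) Mx1-Cre Brd9fl/fl leukemia cells carrying MLL-AF9 (MA9), a fusion oncogene placed in them by a retrovirus with a GFP reporter, and 1000 of these cells were given to each irradiated CD45.1(+) CD45.2(-) recipient, young adult mice by the study's methods. PBS or pIpC at 20 mg/kg was injected 3 times from the day after transplant, and cells were taken 10 days after injection; by the labels the cells were GFP+, by the study's methods c-Kit+. Cre was driven by the interferon-responsive Mx1 promoter, and no group received pIpC without a floxed Brd9 gene, so that the interferon response to pIpC and the loss of Brd9 cannot be told apart. The leukemia donors were not distinguished by the labels, and p-values measure only the spread between these libraries. In bulk RNA, fewer cells of a type and less RNA per cell cannot be told apart.

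The libraries held between 19277439 and 23586722 reads on genes. Brd9 itself was not lower in the pIpC-labelled libraries: its normalized count was 1926.8, 1946.4 and 1631.9 in the PBS libraries and 2036, 2263 and 2011.4 in those labelled pIpC (log2 fold change 0.20, standard error (SE) 0.13, limma adjusted p = 0.259; 0.12 without PBS replicate 3, described below). The floxed allele loses exons 4 to 6 only, so that a count over the whole gene does not measure the deleted part alone. The study nevertheless reported lower Brd9 mRNA after this excision in whole bone marrow, citing RNA-seq of normal stem and progenitor cells as well. For this leukemia it reported inefficient deletion in GFP+ marrow cells of pIpC-treated mice that died early. Whether Cre had acted in these libraries cannot be read from the Brd9 count. Groups are named by label only. The label of a leukemia sample was checked against marker lists. The MLL-AF9 target genes Hoxa9, Hoxa10 and Meis1 were lower in the pIpC-labelled libraries and Mef2c was higher, 4 of 6 myeloid lineage markers were higher, and all 10 of 10 neutrophil markers were higher, with a summed level of 16304.9 to 36512.1 in PBS and 1906396 to 1975567.4 in pIpC-labelled libraries. All 6 of 6 B cell markers were also higher, 4 of them genes that passed the filter on low values only through the pIpC-labelled libraries, as did Mef2c. Over all genes tested, 25.0% were higher and 20.4% were lower. The part of these marker changes in the cathepsin values below was not tested.

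PBS replicate 3 stood apart from the other PBS libraries. The chi-square statistic per gene was 194 and 171 for its pairs with replicates 1 and 2, against 6.30 for replicates 1 and 2 and at most 16.8 within the pIpC-labelled group. Short transcripts were high in it and long ones low: relative to the other PBS libraries, the median log2 difference was 0.82 for 2516 genes with up to 1500 exonic bases and -0.53 for 3991 genes longer than 6000. Of the cathepsins, 9 of 10 were higher in PBS replicate 3 than in the mean of the other PBS libraries, from 1.33-fold for Ctss to 2.81-fold for Ctsw, and Ctsl was at 0.89 of that mean. The test of each cathepsin and the counts of each pathway list are therefore also given without this library.

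**Figure D1:**
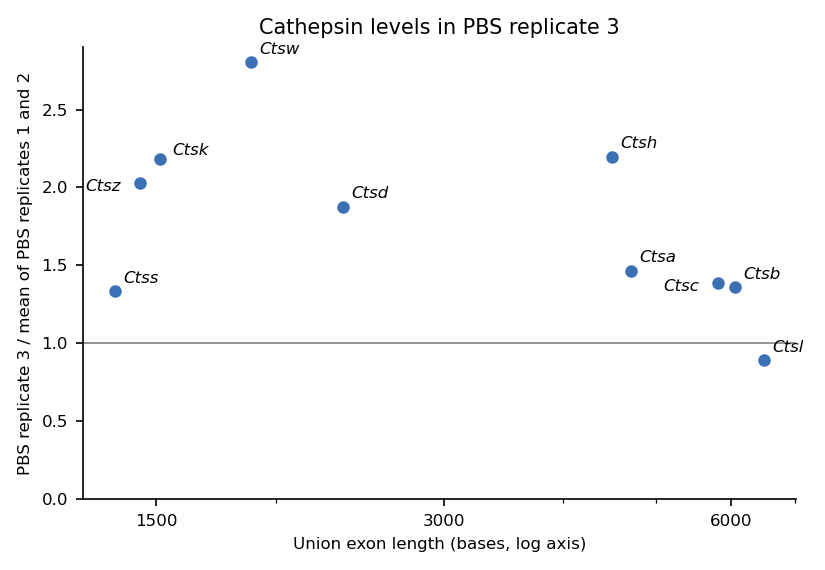
Ratio of the normalized count in PBS replicate 3 to the mean of PBS replicates 1 and 2 (linear axis) against the union exon length of each cathepsin gene (log axis, bases), 1 point per gene. The points lie between 0.89 (Ctsl) and 2.81 (Ctsw), and all but Ctsl are above the line at 1.

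The cathepsin genes did not move as a block. Ctsc, Ctss and Ctsw were higher in the pIpC-labelled libraries, Ctsa, Ctsh and Ctsk were lower, and Ctsb, Ctsd, Ctsl and Ctsz did not pass an adjusted p under 0.1. The 3 that rose compare with 25.0% of all genes tested that were higher, the 3 that fell with 20.4% that were lower, and the 6 of 10 that changed in either direction with 45.3%. In 7 of 10 the PBS and pIpC-labelled values were fully separate, beside 56.8% of all genes. These counts include Ctsw, which passed the filter only through the pIpC-labelled libraries, so that a difference was built in. At a mean of at least 50, which leaves Ctsw out, 2 cathepsins were higher and 3 lower. Of the 11672 genes then tested, 2746 were higher and 2485 lower. The median log2 fold change of the 10 was 0.21, beside 0.01 over all genes tested. Without PBS replicate 3, 8 of 10 passed (5 higher and 3 lower, with Ctsb and Ctsd added), beside 65.1% of all genes. Under quantile normalization, which moved the median of all genes to -0.12 and turned the split of calls from 3750 higher and 3058 lower to 3244 higher and 4078 lower, every cathepsin kept its direction.

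**Figure D2:**
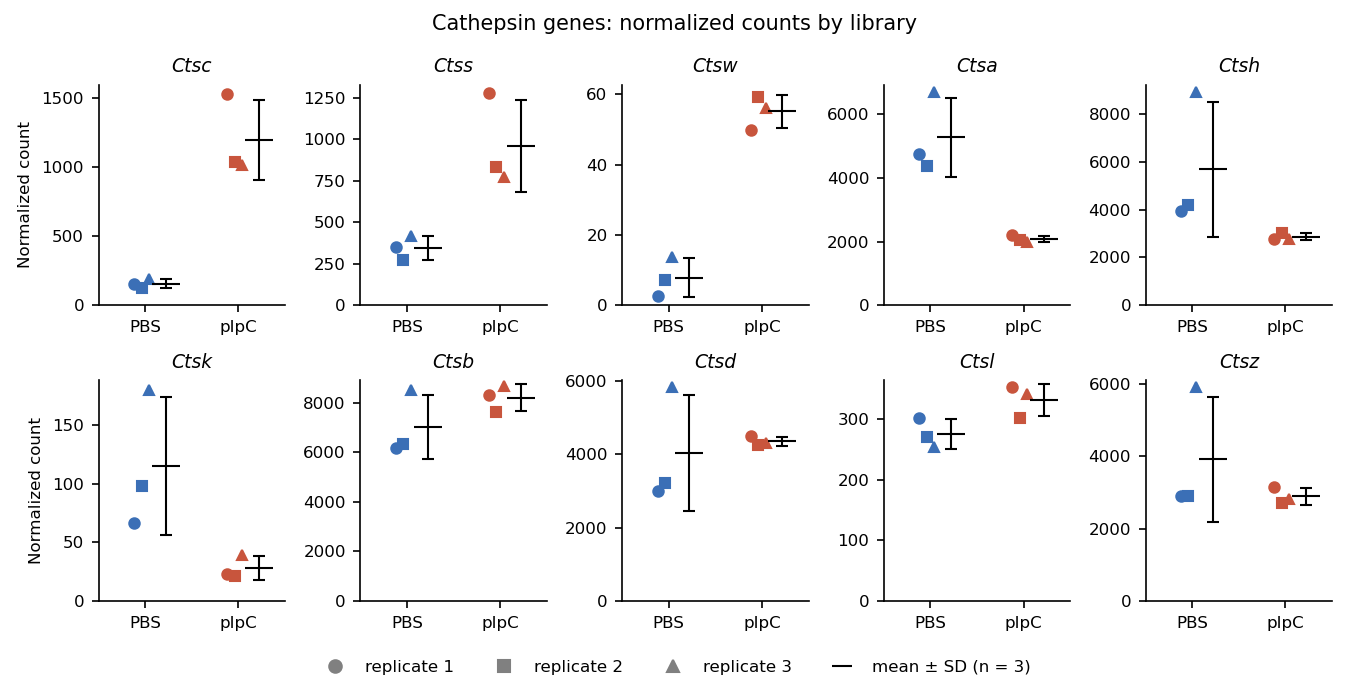
Normalized counts of the 10 cathepsin genes by library, with PBS in blue and pIpC-labelled libraries in red, one marker shape per replicate number, and the mean ± SD (n = 3) beside each group. Each vertical axis starts at 0; PBS replicate 3 (triangle) is the highest PBS value in every panel but Ctsl.

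Among the genes that rose, Ctsc encodes cathepsin C (dipeptidyl peptidase I), which removes dipeptides and thereby activates granule serine proteases of neutrophils, mast cells and cytotoxic lymphocytes. Ctsc (ENSMUSG00000030560, chr7:88278085-88310888 of GRCm38, plus strand) had normalized counts of 152.3, 123.5 and 191.3 in the PBS libraries and 1524, 1033.9 and 1016.3 in the pIpC-labelled libraries. The lowest pIpC-labelled value was above every PBS value by a wide margin, and pIpC-labelled replicate 1 stood above the other two. The mean rose 7.65-fold, from 156 ± 34.0 to 1191 ± 288 (SD, n = 3), with a log2 fold change of 2.92 (SE 0.24, limma adjusted p = 0.000161) and 3.08 without PBS replicate 3.

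Ctss encodes cathepsin S, the endopeptidase that completes removal of the invariant chain from MHC class II molecules in antigen-presenting cells and stays active near neutral pH. Ctss (ENSMUSG00000038642, chr3:95526786-95556403, plus strand) stood at 353, 271.3 and 416.5 in the PBS libraries and at 1280.5, 831.7 and 772.6 in the pIpC-labelled libraries. The groups did not overlap, and pIpC-labelled replicate 1 was again the highest. The mean rose 2.77-fold, from 347 ± 72.8 to 962 ± 278 (SD, n = 3; log2 fold change 1.45, SE 0.25, limma adjusted p = 0.00439; 1.60 without PBS replicate 3).

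Ctsw encodes cathepsin W, a cysteine protease of cytotoxic T cells and NK cells that is retained in the endoplasmic reticulum. Ctsw (ENSMUSG00000024910, chr19:5465043-5468507, minus strand) was low, at 2.6, 7.1 and 13.6 in the PBS libraries (3 reads in replicate 1), and was 49.9, 59.3 and 56.1 in the pIpC-labelled libraries. Its groups did not overlap, and the lowest pIpC-labelled value was several times the highest PBS value. The ratio of means was 7.10 (7.75 ± 5.52 against 55.1 ± 4.76, SD, n = 3), and the log2 fold change was 2.90 (SE 0.53, limma adjusted p = 0.00554), or 3.38 without PBS replicate 3. Its mean passed the filter only through the pIpC-labelled libraries, so that a difference was built into its being tested.

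Marker lists of cells known to use these proteases were measured beside them. Their counts are to be read beside the 25.0% of all genes tested that were higher and the 20.4% that were lower. All 6 of the 6 T and NK cell markers tested (of 10 listed) were higher, 5 of which passed the filter only through the pIpC-labelled libraries, so that a difference was built in. The list had a summed level of 186 to 312.3 in PBS and 4048.9 to 4595.1 in pIpC-labelled libraries, most of it from Nkg7. Prf1, which encodes perforin, was too low to be tested, at 0 in every PBS library and at 9, 13.3 and 11.6 in the pIpC-labelled libraries. All 6 of 6 dendritic cell markers were higher (summed level 67.9 to 93.1 against 502.8 to 727.6), again 5 of them through that filter. Of the 5 basophil and mast cell markers 4 were higher, 2 of them through that filter, and Cpa3 did not pass the threshold (log2 fold change -0.06; summed level 783.4 to 1905.7 against 4440.2 to 6658.1), with Fcer1a, a chain of the high-affinity IgE receptor, at 0 in every PBS library. The sums of these 3 lists were highest in pIpC-labelled replicate 1, as were the neutrophil, monocyte and myeloid lineage sums, Ctsc and Ctss. Of the macrophage markers 7 of 10 were higher (2 through that filter) and 2, Adgre1 and Vcam1, lower, with a summed level of 11805.5 to 16124.2 in PBS and 8269.5 to 9929.1 in pIpC-labelled libraries, and of the monocyte markers 5 of 5 were higher (25493 to 29475.4 against 40204.9 to 44160.2). Their part in the rise of Ctsc, Ctss and Ctsw was not tested.

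RefSeq promoter windows of GRCm38.p6 (250 bases before to 50 after the start, on the gene's strand) were at hand for 7 of the 10 genes in 8 windows, as Ctsa has 2 starts; Ctsb, Ctsh and Ctsw were not matched. The windows of Ctsc (chr7:88277835-88278134, plus strand) and Ctss (chr3:95526536-95526835, plus strand) are shown because both genes rose and both windows held the PU.1 core GAGGAAGT, here read on the opposite strand. PU.1 is a transcription factor of the myeloid lineage. Capitals mark every match to one of the 5 motifs searched on both strands.
Ctsc promoter: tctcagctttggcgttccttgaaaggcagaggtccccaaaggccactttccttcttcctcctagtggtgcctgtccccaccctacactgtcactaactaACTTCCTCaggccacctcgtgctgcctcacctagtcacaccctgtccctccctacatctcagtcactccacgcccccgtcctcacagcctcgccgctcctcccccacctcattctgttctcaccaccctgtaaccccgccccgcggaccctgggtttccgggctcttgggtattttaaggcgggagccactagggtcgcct
Ctss promoter: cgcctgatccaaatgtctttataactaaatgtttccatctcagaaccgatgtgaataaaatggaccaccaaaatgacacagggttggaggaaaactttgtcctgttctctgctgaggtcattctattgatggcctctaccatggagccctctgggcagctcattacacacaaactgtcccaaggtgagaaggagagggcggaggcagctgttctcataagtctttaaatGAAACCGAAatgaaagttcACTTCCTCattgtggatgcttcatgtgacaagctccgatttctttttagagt
With the start at 1 and the base before it at -1, the PU.1 core began at -151 in Ctsc and at -2 in Ctss, and the letters GAAANNGAA of the interferon response element began at -21 in Ctss. Over all 32851 windows of this length, 3.20% held the PU.1 core and 8.56% the interferon response element. No window of the other cathepsins held either of them.

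Among the genes that fell, Ctsa encodes cathepsin A, a serine carboxypeptidase that also protects beta-galactosidase and neuraminidase 1 in a lysosomal complex. Ctsa (ENSMUSG00000017760, chr2:164832873-164841032, plus strand) had normalized counts of 4761.3, 4375.7 and 6700.6 in the PBS libraries and 2193.7, 2037.2 and 1997.8 in the pIpC-labelled libraries. Each pIpC-labelled value was about as low as the next, and none came near a PBS value. The PBS mean was 2.54 times that of the pIpC-labelled libraries (5279 ± 1246 against 2076 ± 104, SD, n = 3), with a log2 fold change of -1.32 (SE 0.18, limma adjusted p = 0.00152) and -1.14 without PBS replicate 3. Of its exonic bases, 17.4% are shared with Neurl2 and Pltp on the opposite strand, whose reads cannot be told apart from its own if the libraries were unstranded, as the labels state. Pltp reached at most 71.9 and Neurl2 at most 36.2 normalized counts in a library, which does not show how reads in the shared bases were assigned.

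Ctsk encodes cathepsin K, the collagen-degrading protease of osteoclasts. Ctsk (ENSMUSG00000028111, chr3:95499256-95509362, plus strand) was at 66.6, 98.2 and 179.9 in the PBS libraries and at 23, 21.5 and 39.6 in the pIpC-labelled libraries. The groups did not overlap. The PBS mean was 4.10 times that of the pIpC-labelled libraries (115 ± 58.5 against 28.0 ± 10.1, SD, n = 3; log2 fold change -1.93, SE 0.43, limma adjusted p = 0.0133; -1.55 without PBS replicate 3). Of the 6 osteoclast markers 2 could be tested and neither passed the threshold. Their summed level was 268.2 to 667.7 in PBS and 153.3 to 327.4 in pIpC-labelled libraries, nearly all of it Acp5. The 4 that could not be tested had at most 5 reads in any library, among them Calcr, the calcitonin receptor of osteoclasts, with 1, 0 and 3 reads in PBS and 0 in every pIpC-labelled library. Their part in the fall of Ctsk was not tested.

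Ctsh encodes cathepsin H, an aminopeptidase. Ctsh (ENSMUSG00000032359, chr9:90054152-90076089, plus strand) stood at 3948, 4184.4 and 8931.1 in the PBS libraries and at 2782.6, 3040.5 and 2785 in the pIpC-labelled libraries. The groups did not overlap, but PBS replicate 3 was more than double the other PBS values. The ratio of the PBS mean to the other was 1.98 (5688 ± 2811 against 2869 ± 148, SD, n = 3), and the log2 fold change was -0.88 (SE 0.31, limma adjusted p = 0.0662). Without PBS replicate 3 the log2 fold change was -0.50 and the call held (limma adjusted p = 0.000261). The call was lost without pIpC-labelled replicate 1, 2 or 3 (limma adjusted p = 0.171, 0.15 and 0.172).

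Promoter windows of the genes that fell are shown for Ctsa (the second of its starts, chr2:164833523-164833822, plus strand) and Ctsk (chr3:95498960-95499259, plus strand), together with that of Ctsd (chr7:142387778-142388077, minus strand). Ctsd did not pass the threshold with all libraries and was higher without PBS replicate 3, and its window shares with that of Ctsa the extended E-box TCACGTGA, a palindrome bound by TFEB and its relatives, which drive lysosomal genes. The E-box CACGTG, searched separately, lies inside it.
Ctsa promoter: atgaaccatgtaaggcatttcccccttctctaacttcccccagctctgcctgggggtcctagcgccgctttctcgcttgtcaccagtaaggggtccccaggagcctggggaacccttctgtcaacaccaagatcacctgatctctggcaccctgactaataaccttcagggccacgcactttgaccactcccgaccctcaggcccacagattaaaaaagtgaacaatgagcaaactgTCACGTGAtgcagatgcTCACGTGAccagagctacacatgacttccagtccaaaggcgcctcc
Ctsd promoter: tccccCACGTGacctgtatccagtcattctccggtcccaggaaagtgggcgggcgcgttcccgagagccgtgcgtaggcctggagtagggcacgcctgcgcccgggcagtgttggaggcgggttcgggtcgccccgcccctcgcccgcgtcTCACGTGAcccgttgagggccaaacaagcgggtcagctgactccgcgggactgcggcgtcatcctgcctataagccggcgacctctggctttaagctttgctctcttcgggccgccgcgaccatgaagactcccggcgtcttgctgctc
Ctsk promoter: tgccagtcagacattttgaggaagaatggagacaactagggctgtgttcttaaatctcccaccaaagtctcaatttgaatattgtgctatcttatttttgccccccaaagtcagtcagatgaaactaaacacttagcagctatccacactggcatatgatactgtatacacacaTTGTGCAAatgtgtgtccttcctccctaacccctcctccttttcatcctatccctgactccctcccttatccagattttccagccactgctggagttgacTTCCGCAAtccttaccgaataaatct
The extended E-box began at -13 and at 5 in Ctsa and at -99 in Ctsd, and 0.974% of all windows held one. A plain E-box, held by 7.15% of all windows, also began at -245 in Ctsd, and the window of Ctsl held one at -236. The C/EBP letters TTGCNNAA, held by 10.8% of all windows, began at -76 and at 25 in Ctsk and at -114 in Ctsl, all read on the opposite strand. The window of Ctsz and the first window of Ctsa held none of the motifs.

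Among the genes that did not pass the threshold, Ctsb encodes cathepsin B, an abundant cysteine protease with endopeptidase and carboxypeptidase activity. Ctsb (ENSMUSG00000021939, chr14:63122462-63145923, plus strand) was at 6187.1, 6343.4 and 8514.7 in the PBS libraries and at 8324.8, 7614.6 and 8682.7 in the pIpC-labelled libraries. The groups overlapped through PBS replicate 3 alone. The log2 fold change was 0.24 (95% confidence interval -0.15 to 0.63, limma adjusted p = 0.291), and without PBS replicate 3 it was 0.39 and passed (limma adjusted p = 0.00161). Fdft1, on the opposite strand, shares 12.8% of the exonic bases of Ctsb. Its normalized count was 443 to 732.2 in the PBS libraries and 471 to 555.9 in the pIpC-labelled libraries. Reads of these genes in the shared bases cannot be told apart if the libraries were unstranded, as the labels state.

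Ctsd encodes cathepsin D, the main aspartic protease of the lysosome. Ctsd (ENSMUSG00000007891, chr7:142375911-142388038, minus strand) stood at 3001.4, 3231.9 and 5849.6 in the PBS libraries and at 4496.3, 4250.2 and 4308.9 in the pIpC-labelled libraries. PBS replicate 3 was the highest of the 6 values and the other PBS libraries were the lowest. The log2 fold change was 0.18 (95% confidence interval -0.43 to 0.79, limma adjusted p = 0.611), against 0.48 without that library (limma adjusted p = 0.000235). Gm49369, which shares 34.4% of its exonic bases on the same strand, had at most 1 read in a library. Whether reads in the shared bases were counted for Ctsd cannot be read from this, as their assignment was not checked.

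Ctsl encodes cathepsin L, an endopeptidase of broad specificity. Ctsl (ENSMUSG00000021477, chr13:64359337-64370890, minus strand) was at 302, 270.3 and 254.6 in the PBS libraries and at 352.3, 302.4 and 342.3 in the pIpC-labelled libraries. The groups touched without overlapping, and the log2 fold change was 0.27 (95% confidence interval -0.09 to 0.63, limma adjusted p = 0.210), or 0.21 without PBS replicate 3, where it did not pass either (limma adjusted p = 0.162). Gm47123 and Gm49230, which overlap 26.8% of its exonic bases, were at 0 in every library. That does not show whether reads in the shared bases were counted for Ctsl, as their assignment was not checked.

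Ctsz encodes cathepsin Z (also called X), a carboxypeptidase of monocytic cells that removes single residues. Ctsz (ENSMUSG00000016256, chr2:174427493-174439039, minus strand) was at 2908, 2910 and 5905 in the PBS libraries and at 3140.9, 2704.4 and 2819.8 in the pIpC-labelled libraries. Apart from PBS replicate 3 all 5 values lay close together. The log2 fold change was -0.35 (95% confidence interval -1.03 to 0.33, limma adjusted p = 0.367), and it was -0.01 without that library.

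**Figure D3:**
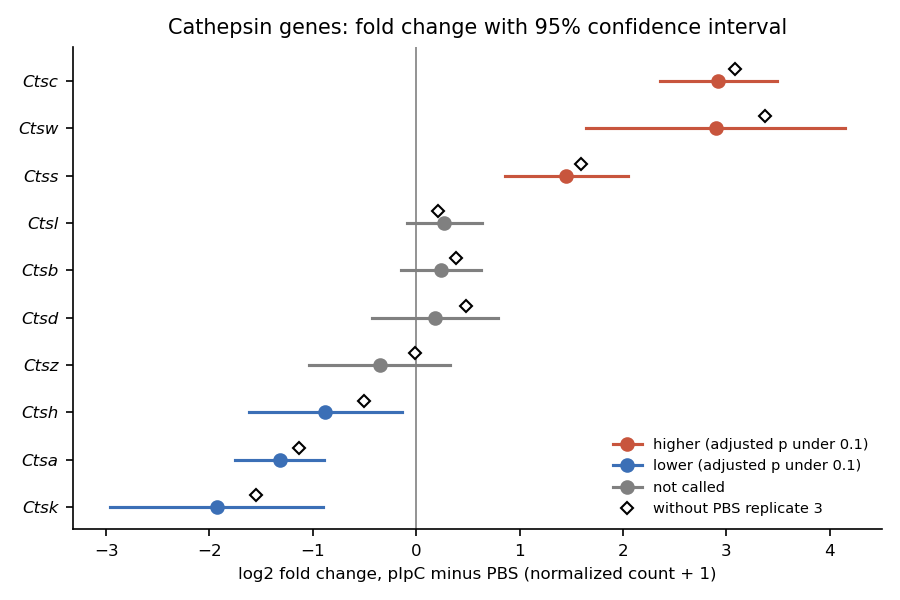
Log2 fold change of each cathepsin gene, pIpC-labelled minus PBS libraries, on normalized count + 1, with filled points for all 6 libraries, lines for the 95% confidence interval and open diamonds for the value without PBS replicate 3 (no interval drawn). The values run from -1.93 (Ctsk) to 2.92 (Ctsc), and the diamond lies to the right of the filled point for every gene but Ctsl.

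Levels were next compared between the genes per kilobase of exonic length, on the scale of normalized counts. Bases shared with other genes (34.4% of those of Ctsd and 26.8% of those of Ctsl) were kept in these lengths. How reads in the shared bases were assigned was not checked. The summed level of the 10 cathepsins was 6583, 6632 and 11904 per kilobase in the PBS libraries and 7853, 6934 and 7120 in the pIpC-labelled libraries, so that the groups overlapped. As a share of all reads, cathepsins took 0.112%, 0.112% and 0.154% in PBS and between 0.0959% and 0.104% in pIpC-labelled libraries. Shares within this pool are given next. By all exonic bases Ctsz and Ctsd led in both groups, with Ctsz at 31.8% ± 2.24 of the summed level in PBS and 27.4% ± 0.347 in pIpC-labelled libraries, and Ctsd at 20.3% ± 0.825 and 25.4% ± 0.913 (SD, n = 3). Their levels overlapped between libraries in both groups, although Ctsz was above Ctsd within each of the 6 libraries. In PBS libraries Ctsh (14.7% ± 1.77), Ctsb (14.4% ± 2.23) and Ctsa (13.8% ± 1.71) followed, neighbours whose levels overlapped. In pIpC-labelled libraries the order was Ctsb (18.6% ± 1.38), Ctss (9.61% ± 2.12), Ctsh (8.77% ± 0.938) and Ctsa (6.04% ± 0.170), and of these neighbours only the levels of Ctss and Ctsh overlapped. In PBS libraries Ctss stood at 3.18% ± 0.702.

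The 4 least abundant genes changed places. In PBS libraries Ctsk (0.883% ± 0.185) and Ctsl (0.555% ± 0.199) overlapped in level per kilobase. By that level both lay above Ctsc (0.332% ± 0.0616) and Ctsw (0.0460% ± 0.0218), although the shares of Ctsl and Ctsc overlapped between libraries. In pIpC-labelled libraries Ctsc (2.79% ± 0.482) was followed by Ctsl (0.701% ± 0.0355), Ctsw (0.402% ± 0.0595) and Ctsk (0.255% ± 0.0979). No neighbours in this stretch overlapped in level per kilobase. The lowest level of Ctsw (26.45, replicate 1) was barely above the highest of Ctsk (26.22, replicate 3), and the shares of Ctsw and Ctsk did overlap. With the length of the longest transcript in place of all exonic bases, Ctsh took 20.1% in PBS, above Ctsd (18.8%) in every PBS library, and 12.2% in pIpC-labelled libraries, above Ctss (8.20%). Ctsd (23.9%) then stood above Ctsz (23.3%) in the mean of the pIpC-labelled libraries, of which 1 of 3 still had Ctsz higher. Ctsc (0.499%) stood above Ctsl (0.487%) in the mean of the PBS libraries, where 2 of 3 libraries still had Ctsl higher. A pair chosen after its values were seen, Ctss and Ctsk, lies side by side on chromosome 3 and on the same strand, with 17423 bases between the end of Ctsk and the start of Ctss. The level per kilobase of Ctss was 5.90, 3.08 and 2.58 times that of Ctsk in the PBS libraries and 62.1, 43.2 and 21.7 times in the pIpC-labelled libraries. These neighbouring genes thus moved in opposite directions.

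**Figure D4:**
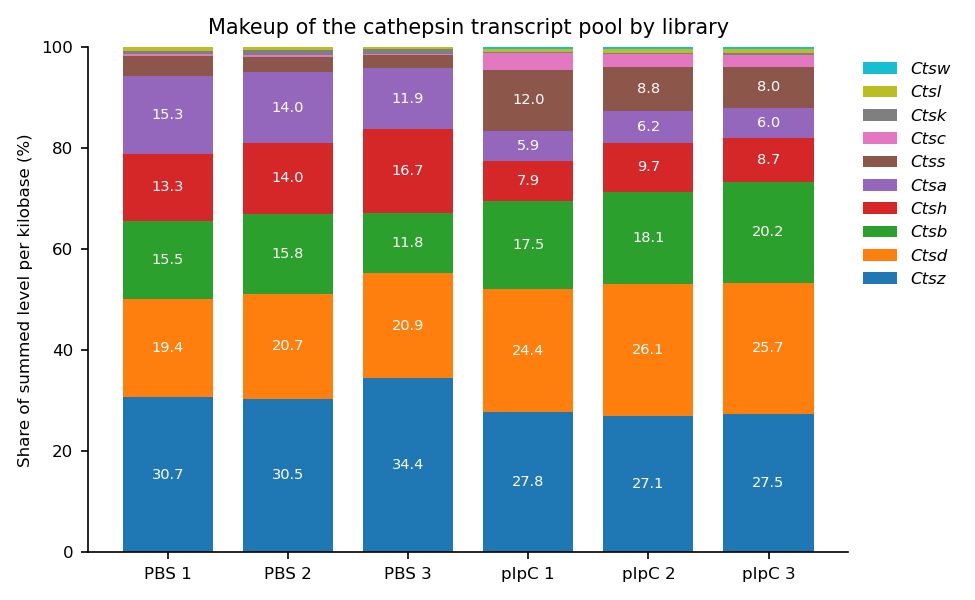
Share of each cathepsin gene in the summed level per kilobase of the 10 genes (percent, linear axis) for each of the 6 libraries, stacked to 100, with shares above 5% printed. Ctss takes 2.58% to 3.95% of a PBS library and 7.99% to 12.0% of a pIpC-labelled one, and Ctsa takes 11.9% to 15.3% and 5.92% to 6.23%.

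Other genes of the cathepsin pathway were then counted by list, to be read beside the 25.0% of all genes that were higher and the 20.4% that were lower, or 65.1% in either direction without PBS replicate 3. Of the 13 further cathepsin genes 4 could be tested, and 9, of the group expressed in the placenta, were at 0 in every library. Ctsg, the granule serine protease cathepsin G, was higher (log2 fold change 0.44, limma adjusted p = 0.0875), and Ctso was lower (-0.41, limma adjusted p = 0.0428). Both calls were fragile: no further cathepsin gene was higher under 10 of 19 alternatives, among them without PBS replicate 2 and without each pIpC-labelled library, and none was lower under 5, among them the same libraries left out. Of the cystatins and stefins, the inhibitors, 1 of 9 tested was higher and 5 lower, with a median log2 fold change of -1.17. The one that rose was Cst7, which encodes cystatin F, the inhibitor that acts inside lysosomes of immune cells and restrains cathepsin C. Its normalized count was 240.5, 185.2 and 396.1 in the PBS libraries and 2264.6, 1859.5 and 2122.6 in the pIpC-labelled libraries (log2 fold change 2.99, limma adjusted p = 0.000281). The largest fall was that of Stfa1, a stefin of the cytosol, from 4238.7, 4984 and 16965.9 in PBS to 17, 29.6 and 23.2 in pIpC-labelled libraries (log2 fold change -8.23, limma adjusted p = 6.78e-05). BC100530, BC117090, Stfa3 and Cstb were the others that fell, BC117090 being a gene that passed the filter only through the PBS libraries, and since stefin genes are near-identical copies, how reads were divided among them is uncertain. Without PBS replicate 3, 3 of the further cathepsin genes were higher and 1 lower, and 2 of the inhibitors were higher and 6 lower.

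Of the 16 genes of processing and delivery, 4 were higher and 1 lower, with a median log2 fold change of 0.16. Igf2r, the large mannose 6-phosphate receptor, had the largest rise (log2 fold change 3.93, limma adjusted p = 0.00083), from 210.2, 318.8 and 80.3 in PBS to 2438.3, 2786.1 and 2879.7 in pIpC-labelled libraries. Lgmn, the asparaginyl protease that processes cathepsins, Psap and Scarb2 were the others that rose, and Nagpa, which uncovers the mannose 6-phosphate tag, fell (-0.85, limma adjusted p = 0.00658). Of the 4 proteases activated by cathepsin C that could be tested, of 7 listed, 2 were higher, Gzma (log2 fold change 2.91, limma adjusted p = 0.0167) and Ctsg, none was lower and the median was 0.18. Gzma, a granzyme of cytotoxic lymphocytes, had at most 4.5 normalized counts in a PBS library and 12 to 22.5 in pIpC-labelled libraries, and passed the filter only through the latter. With any library other than PBS replicate 3 left out, 1 of these proteases was higher. Without PBS replicate 3, 9 genes of processing and delivery were higher and 2 lower, and 3 of the proteases activated by cathepsin C were higher.

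All 8 genes of class II antigen loading changed, beside 45.3% of all genes, 5 higher and 3 lower (5 and 3 without PBS replicate 3 as well), and their median log2 fold change was 3.49. Cd74, which encodes the invariant chain that cathepsin S cleaves, had the largest rise, from 17.3, 20.2 and 39.6 in PBS to 2724.7, 1728.7 and 1839.2 in pIpC-labelled libraries (log2 fold change 6.36, limma adjusted p = 4.02e-05). Ciita, the class II transactivator, which passed the filter only through the pIpC-labelled libraries, and the class II chains H2-Aa, H2-Eb1 and H2-Ab1 also rose. The peptide-loading chains H2-DMa, H2-DMb2 and H2-DMb1 fell, with H2-DMa the furthest at -1.89 (limma adjusted p = 0.00161); the count of lower genes was 2 without pIpC-labelled replicate 1, 2 or 3. As given above, the dendritic cell markers and the B cell markers (135.6 to 302.2 in PBS, 1097.9 to 1876.9 in pIpC-labelled libraries), which belong to cells that express class II, were higher too, and their part in these values was not tested.

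Among 34 other lysosomal hydrolases 4 were higher and 15 lower (55.9% called, beside 45.3% of all genes), with a median log2 fold change of -0.34. Plbd1, a phospholipase B-like protein of granulocytes, had the largest rise (7.38, limma adjusted p = 1.68e-05), from 50.2, 83 and 40.7 in PBS to 8057.3, 9667.2 and 10672.8 in pIpC-labelled libraries, and the largest fall was that of Dnase2a, the lysosomal DNase (-1.39, limma adjusted p = 0.00655). Of 24 genes of the lysosomal membrane and acidification 3 were higher and 5 lower (33.3% called, beside 45.3%), with a median of -0.09. Atp6v0a1, a proton pump subunit, rose most (1.54, limma adjusted p = 0.00122), and Lamp1, the major membrane glycoprotein of lysosomes, fell most (-1.06, limma adjusted p = 0.000906). Without PBS replicate 3 the counts were 5 higher and 19 lower for the hydrolases, and 9 higher and 8 lower for the membrane list. Without a pIpC-labelled library the hydrolases had 10 (replicate 1 or 2) or 9 (replicate 3) lower, and the membrane list had 1 (replicate 1 or 3) or 2 (replicate 2) higher and 4 (replicate 1) or 3 (replicate 2 or 3) lower. No test of these lists was made against other genes.

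**Figure D5:**
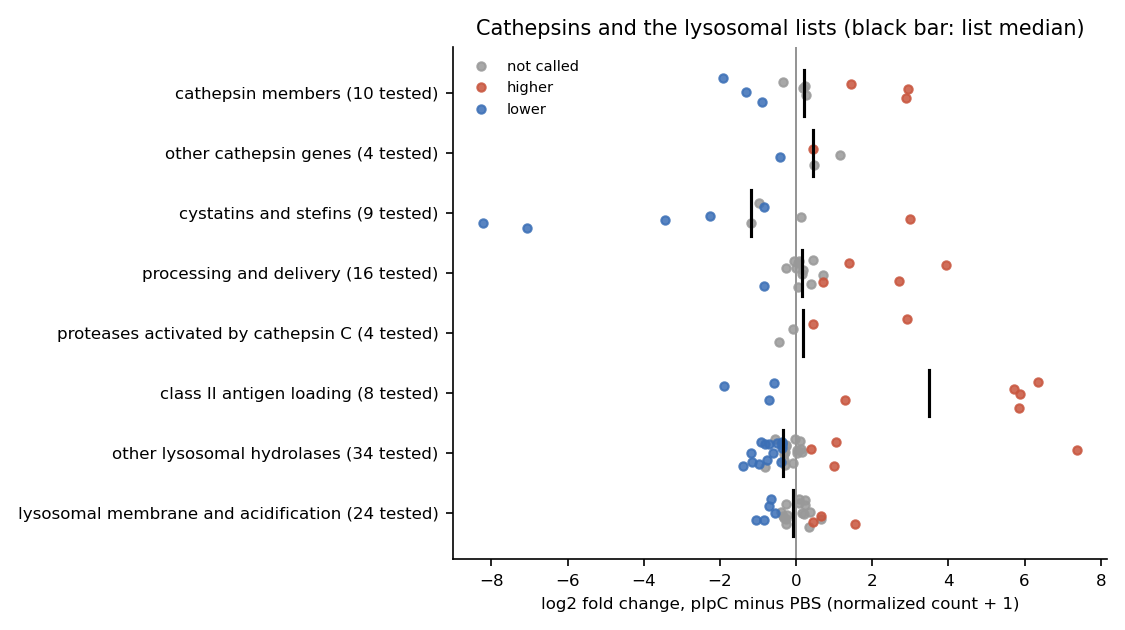
Log2 fold change of each tested gene, pIpC-labelled minus PBS libraries, on normalized count + 1, by list, with red points for higher, blue for lower and grey for genes that did not pass, and a black bar at each list's median (vertical scatter within a row has no meaning). The medians lie between -1.17 (cystatins and stefins) and 3.49 (class II antigen loading), with the cathepsins at 0.21.

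For each cathepsin the gene with the most similar profile was sought among genes averaging at least 100 normalized counts, by the root mean square distance between log2 profiles over the 6 libraries, each centred on its own mean. Ctsc was nearest to Mcpt8 (distance 0.17), which encodes a granule serine protease of basophils, and Ctss to H2-Q4 (0.16), a class I MHC gene. The nearest gene to Ctsk was Lmna (0.19), which encodes lamin A, and to Ctsw it was Cdh23 (0.29). For Ctsa it was Eid2b (0.03) and for Ctsl Irf8 (0.04), a transcription factor of monocytes and dendritic cells. Ctsb, Ctsd, Ctsh and Ctsz were nearest to Akirin2, Csnk2b, Gm8730 and Cnih1, at distances from 0.03 to 0.04. All distances rest on 6 libraries, PBS replicate 3 included.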

How the data were processed

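Values came from 1 table for the series, in which the authors deposited normalized counts per gene (here treated as a signal), 1 scale factor per library. The submitters' processing notes name HISAT2 2.2.1, SAMtools, featureCounts (Subread), edgeR and GRCm38, whereas the study's methods describe a STAR and RSEM pipeline on mm10 and stranded libraries; the labels state unstranded, poly(A)-selected ones. Dividing by the step between low values gave whole reads (within 0.1) for 100% of values, so that reads were recovered. Of 55487 gene identifiers, 55227 had a symbol, and 0 columns of per-sample values were left out.

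The main test was limma 3.58.1, run in R 4.3.3 with its intensity trend, on log2(normalized count + 1), a scale that understates the fold change of low genes, for the 15020 genes with a mean of at least 10, without a replicate block, calling a Benjamini-Hochberg adjusted p under 0.1. The alternatives changed the pseudocount (0.1, 10), the filter (none, 50), the scaling (quantile, median centring), the libraries (1 left out at a time), the model (replicate block, intensity trend off), the tool (edgeR 4.0.16 or DESeq2 1.42.0 on recovered reads) and the threshold (0.05). Removing each library's trend with transcript length, with and without the replicate block, was added after the data were seen. Exonic lengths and positions came from GENCODE release M21 on GRCm38, promoters from RefSeq. Scripts were tested on simulated data in which few genes changed and no library had a trend with transcript length, unlike these data.

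Named genes were the 10 cathepsins, Brd9, the called gene with the largest rise and with the largest fall in each list, and the nearest gene of each cathepsin; the other called genes of short lists, and single markers, were named after their values were seen. The members and lists were chosen with earlier results of these data known. Deviations of same-numbered libraries from their group means showed little correlation (-0.117, 0.143 and 0.041). With 3 libraries per group these values cannot decide whether the replicate numbers pair the libraries. One marker result is not reported here.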

Additional observations from a re-analysis of the deposited data

How the results depend on the processing

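Of the comparisons of a single cathepsin with an alternative, 182 kept their direction and side of the threshold, 4 lost a call, 3 gained one and 0 changed direction. Those lost were all of Ctsh, without each pIpC-labelled library in turn and at an adjusted p under 0.05, and those gained were Ctsb and Ctsd without PBS replicate 3, and Ctsd with the transcript length trend removed (log2 fold change 0.36). With 1 library left out, 3 to 5 cathepsins were higher (5 without PBS replicate 3) and 2 to 3 were lower. With a replicate block 6095 genes were called in place of 6808, and 3 cathepsins were higher and 3 lower. The block changed no call of a cathepsin or of Brd9, and whether the numbers pair the libraries is not known. Among the counts of the 7 other lists 225 stayed within 1.5-fold and 41 did not; with the replicate block no further cathepsin gene passed. Ctsw could not be tested at a mean of at least 50, and its log2 fold change ranged from 1.92 to 3.38 over 18 alternatives. Precision is limited by 3 libraries per group, and for Ctsd, Ctsh and Ctsz the SD of the PBS libraries (1582, 2811 and 1730 normalized counts) was above that of the pIpC-labelled libraries (129, 148 and 226). The PBS SD was also the larger for Ctsa (1246 against 104), Ctsb (1301 against 544), Ctsk (58.5 against 10.1) and Ctsw (5.52 against 4.76). It was the smaller for Ctsc, Ctsl and Ctss.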
